A study of Mus musculus with 8 samples.

Results

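The interferon-stimulated antiviral genes are 39 listed genes that cells switch on when interferon reaches them. Members were taken from the list by gene symbol, and a listed gene was kept where it had 30 or more unique molecular identifiers (UMIs, each standing for 1 captured transcript) over the 8 libraries. Of the 39, 35 had a row in the table and 34 reached 30 UMIs, among 12661 tested genes of 13265 in the table. The tested member nearest the limit was Rsad2 with 32 UMIs, and Oas1a fell under it with 14 UMIs and was not tested. Xaf1, Ddx60, Herc6 and Cxcl9 were not analysed here.

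The libraries came from lung epithelium of C57BL6 mice, and the column names mark every library of both groups as wt (wild type). In the LPS group (3 libraries, called s4, s14 and s18) mice breathed an aerosol of Escherichia coli lipopolysaccharide (LPS, from the outer membrane of the bacterium) at 0.5 mg/ml in PBS. The PBS group (5 libraries, s1, s2, s6, s11 and s16) breathed PBS without it. Sessions of 30 min were given 3 times a week for 10 weeks in both groups, and the study's methods put lung collection 48 h after the last exposure. The methods name female mice of 10 to 14 weeks for young groups and 24 months for old ones, and the labels give only 10 weeks, which is also the length of the exposure. For each library 10000 cells with EpCAM and without CD31 and CD45 on their surface were sorted and read by a bulk form of MARS-seq, which counts the 3′ ends of polyadenylated transcripts. The labels call the libraries of a group biological replicates.

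Type I and type III interferons bind receptors at the cell surface, and the kinases there switch on a complex that includes STAT2 and IRF9 and binds a short element, the interferon-stimulated response element (ISRE), in the promoters of target genes. Type II interferon acts on a different element, the gamma-activated site (GAS). The targets include sensors of foreign nucleic acid, proteins that block viral RNA or viral exit, the ubiquitin-like protein ISG15 with its enzymes, and proteins that shut the pathway off again. Airway and alveolar epithelium respond to both type I and type III interferon. LPS itself can lead to interferon through Toll-like receptor 4 and the adaptor TRIF.

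Library totals were 2739340 to 4445431 UMIs in the LPS group and 2232727 to 2890560 in the PBS group (two-sided exact permutation test over 56 assignments, p = 0.0536, where the smallest possible p is 0.0179). In the scale used below, CPM (UMI counts scaled to a common total, with TMM factors), a count of 3′ ends in which transcript length does not enter, 3 counts were worth 0.667 to 1.05 CPM in LPS libraries and 0.968 to 1.45 CPM in PBS libraries. Epithelial identity was present in every library, with the 6 epithelial markers, Epcam among them, summing to 1889 to 2173 CPM in the LPS group and 1724 to 2156 CPM in the PBS group. Markers of macrophages, ciliated cells and alveolar type II cells moved with the groups, and those of most other cell types looked at did not. The 29 tested macrophage markers summed to 2903 to 4471 CPM in LPS libraries and 1528 to 2237 CPM in PBS libraries (exact permutation test, p = 0.0179), 27 of the 29 had a positive log2 fold change and 14 were called higher. Of these markers only Cx3cr1 was at 0 in a library, s6, and Fcgr1 was not analysed here. The 6 pan-leukocyte markers, Ptprc (CD45) among them, summed to 348 to 395 CPM in LPS libraries and 278 to 406 CPM in PBS libraries (p = 0.196, exact permutation test), and 0 were called by edgeR, DESeq2 or limma-voom, with 1 higher at an unadjusted p under 0.05. Ciliated cell markers summed to 7586 to 8766 CPM in LPS libraries and 2476 to 6080 CPM in PBS libraries (p = 0.0179, exact permutation test), with 0 of 12 called by edgeR (9 at an unadjusted p under 0.05) and 2 by DESeq2. The 10 alveolar type II cell markers, Sftpc among them, had lower sums, with 126171 to 131158 CPM in LPS libraries and 145608 to 215142 CPM in PBS libraries (p = 0.0357, exact permutation test), and 0 of the 10 had a positive log2 fold change. Marker sums of T and NK cells, B and plasma cells, neutrophils and dendritic cells overlapped between the groups. So did those of endothelial cells, fibroblasts, alveolar type I cells and club cells. Their p-values by the exact permutation test were 0.125 to 0.857, and 1 T and NK cell marker was called higher by edgeR. The plasmacytoid dendritic cell markers Siglech and Ccr9 were not analysed here. The part of these cell types in the values of the interferon-stimulated genes was not tested. In bulk libraries fewer cells of a type and less RNA per cell cannot be told apart.

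After chronic LPS exposure 2 of the 34 interferon-stimulated genes rose, and the other 32 did not pass. Lgals3bp, which encodes a secreted glycoprotein that binds galectins, was 2.64-fold higher, and Usp18, the protease that removes ISG15 from proteins and dampens signalling at the type I interferon receptor, was 2.36-fold higher. Together they made 5.88% of the members, against 1.46% of all tested genes called higher by edgeR's quasi-likelihood test (Benjamini-Hochberg adjusted p under 0.05, with the study's threshold on the fold change). None was called lower by edgeR, DESeq2 or limma-voom, where 0.569% of all tested genes were called lower, and 0 members were lower at an unadjusted p under 0.05, against 7.64% of all tested genes (both shares by edgeR). At the looser mark of an unadjusted p under 0.05, 8 members (23.5%) were higher, against 10.4% of all tested genes. They were the called pair with Oas2, Trafd1, Zbp1, Irf7, Dhx58 and Ifi35. In 4 members (11.8%), Lgals3bp, Usp18, Trafd1 and Dhx58, the lowest LPS library exceeded the highest PBS library, and this held for 8.52% of all tested genes.

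Most of the values were positive. Of the 34 members 27 had a positive log2 fold change, and their median was 0.35, beside a median of -0.02 over all tested genes, of which 47.3% were positive. The 25 members with a mean of 10 CPM or more had a median log2 fold change of 0.13 and held both called genes, while the 9 scarcer ones had a median of 0.81 with none called. All tested genes under 10 CPM had a median of -0.0022. The plot of fold changes by role shows Irf1, Trim25, Isg20 and Adar near 0 and Rsad2, Mx1 and Ifi44 further right with wide errors, and Lgals3bp, the most abundant member, as far right with a narrow one.

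**Figure D1:**
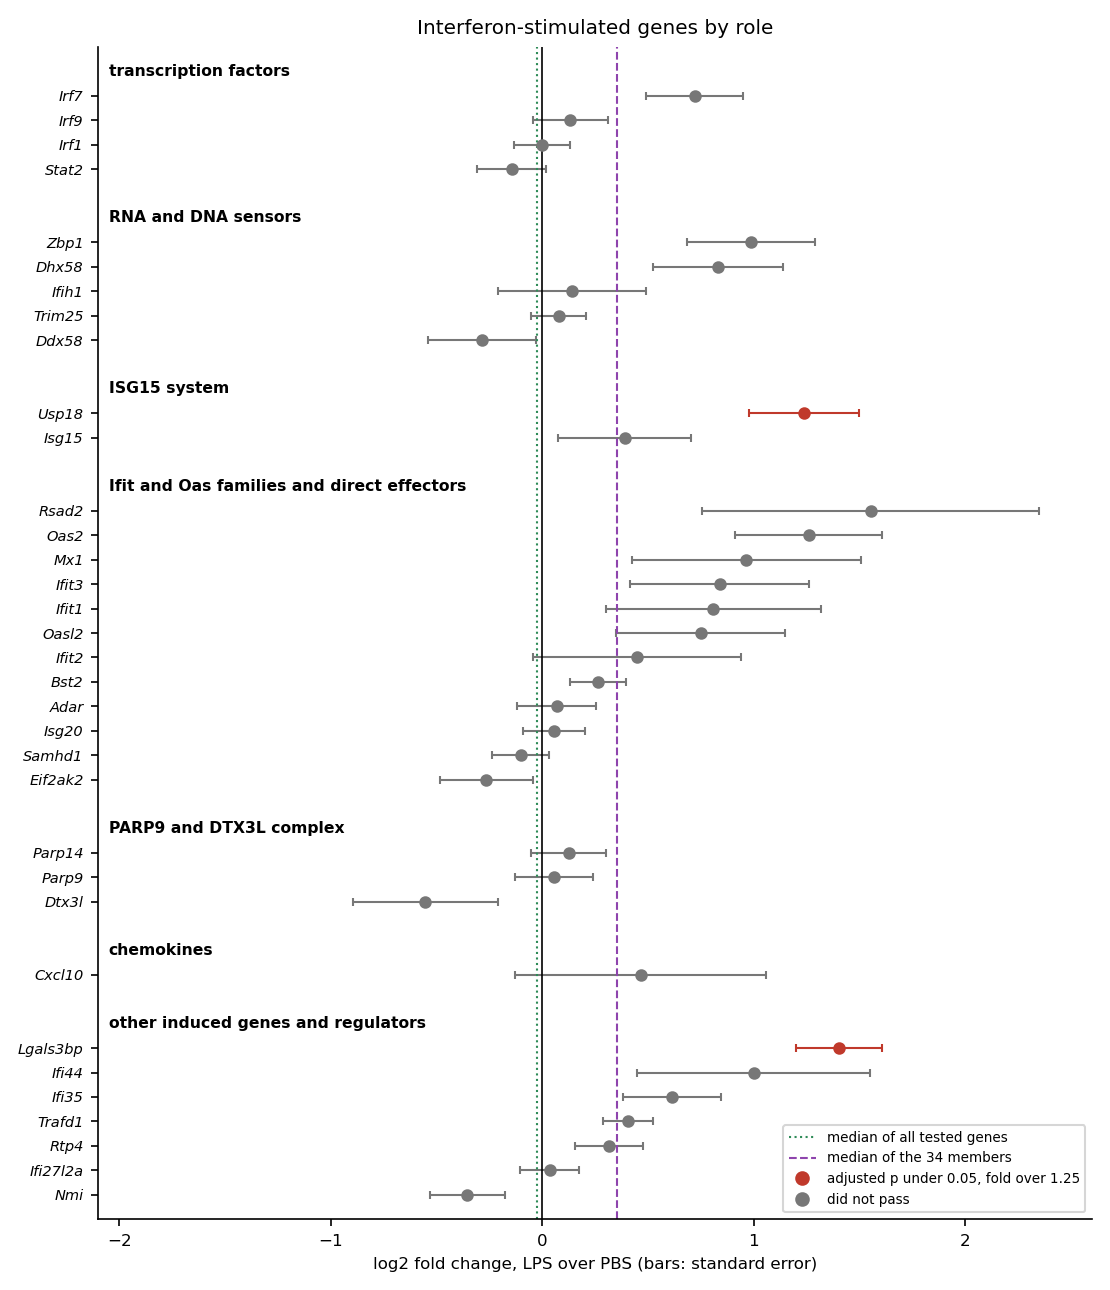
Log2 fold change of LPS over PBS for the 34 tested members, grouped by role (x axis, points; bars are standard errors, SE, from edgeR). Only Lgals3bp (1.40) and Usp18 (1.24) are marked as called; the dashed line is the members' median of 0.35 and the dotted line that of all tested genes, -0.02.

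Many of the promoters held the ISRE core. The letters GAAANNGAAA were searched on both strands of the 300-base windows from 250 bases before to 50 after each annotated start (RefSeq, GRCm38.p6), and overlapping matches were counted, also where an ISRE match shares bases with a GAS match. A window existed for 25 tested members, 10 of which (40%) held the core, against 3.66% of the 10081 tested genes with a window and 3.99% of all 27025 genes. The GAS core TTCNNNGAA was in 8 of 25 (32%), against 8.20% of tested genes and 9.55% of all genes. The stretches printed here run from base -180 to base -51 before the start and show where the core stood; its letters are in capitals, read as TTTCNNTTTC where the core lies on the other strand. Ifit3 and Bst2 were chosen as the members with a core among the 12 with the smallest unadjusted p; Ifit1, Isg15 and Lgals3bp were added after their values were seen, the first pair as textbook ISRE genes and Lgals3bp as the member with the smallest p.
Ifit3 (chr19:34583349-34583478, plus strand): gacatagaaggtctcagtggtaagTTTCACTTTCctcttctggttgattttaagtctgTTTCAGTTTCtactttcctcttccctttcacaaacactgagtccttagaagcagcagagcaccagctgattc
Ifit1 (chr19:34640709-34640838, plus strand): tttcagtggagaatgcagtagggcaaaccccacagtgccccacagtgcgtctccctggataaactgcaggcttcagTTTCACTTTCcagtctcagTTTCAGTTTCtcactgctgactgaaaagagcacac
Isg15 (chr4:156200869-156200998, minus strand): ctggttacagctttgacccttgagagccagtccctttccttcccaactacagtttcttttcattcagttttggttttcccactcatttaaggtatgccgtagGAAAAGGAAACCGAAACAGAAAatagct
Bst2 (chr8:71537523-71537652, minus strand): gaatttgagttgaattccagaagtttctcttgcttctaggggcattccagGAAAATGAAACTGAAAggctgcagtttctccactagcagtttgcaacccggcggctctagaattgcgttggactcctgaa
Lgals3bp (chr11:118402010-118402139, minus strand): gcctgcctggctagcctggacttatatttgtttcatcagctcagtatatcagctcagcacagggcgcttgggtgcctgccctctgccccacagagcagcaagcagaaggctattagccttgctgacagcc

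Ifit3 and Ifit1 each carried 2 separate cores, Bst2 had 2 that overlap and Isg15 had 3 in one run. No core letters lay in the window of Lgals3bp. The first bases after the start were looked for in transcripts of a second annotation, GENCODE. They were in 1 transcript each for Ifit3, Ifit1, Isg15 and Lgals3bp and in 0 for Bst2, so the base positions of Bst2 are less certain. The other tested members with a core were Rsad2, Cxcl10, Stat2, Ifih1, Ddx58 and Eif2ak2. Members with a core had log2 fold changes of -0.29 to 1.55 with a median of 0.33, and 7 of 10 were positive. The 15 with a window and no core had a median of 0.13, and 11 of them were positive. The 9 without a window, which could not be searched, were Usp18, Oas2, Zbp1, Dhx58, Mx1, Rtp4, Parp9, Parp14 and Ifi27l2a, and had a median of 0.83 with 9 positive. The position map shows that the cores of Rsad2, Ifit1, Ifit3, Isg15 and Bst2 lay between base -156 and base -57 before the start. Those of Ifih1, Ddx58 and Eif2ak2 lay after it, and Ifit2 had none. A match describes letters in a window and is not a measured binding site.

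**Figure D2:**
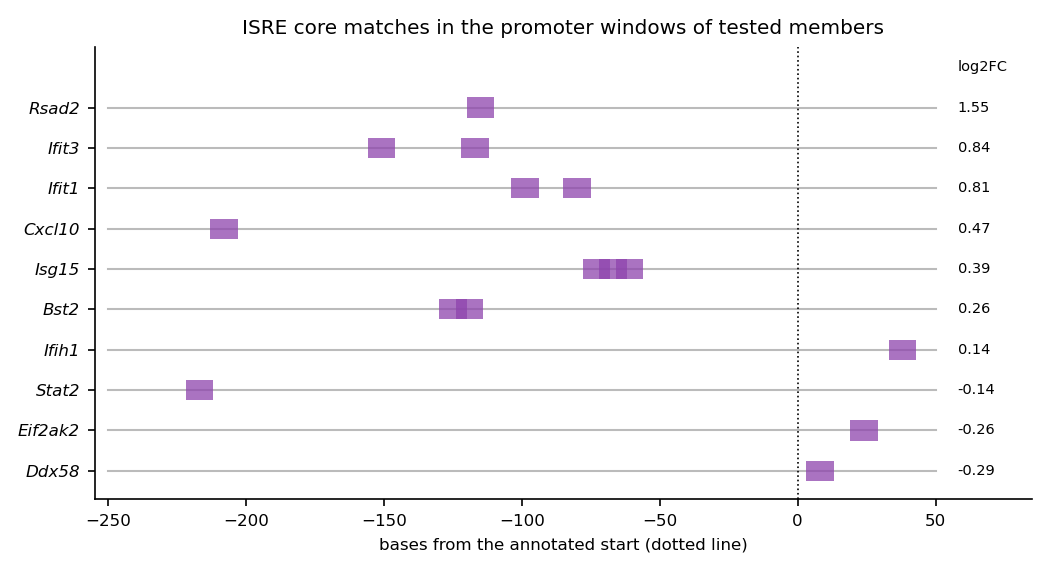
Positions of ISRE core matches (purple blocks) in the promoter windows of the 10 tested members that hold one, against bases from the annotated start (x axis); members run from the highest log2 fold change of LPS over PBS at the top (Rsad2, 1.55) to the lowest (Ddx58, -0.29). Ifih1, Eif2ak2 and Ddx58 have their block after the start. None of the 10 is called, and a link between block position and fold change was not tested.

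Among the transcription factors Irf7, which amplifies interferon production, had the smallest adjusted p. Irf7 was at 56.9, 80.8 and 43.8 CPM in the LPS libraries s4, s14 and s18, against 48.01, 39.7, 34.7, 35.7 and 23.9 CPM in the PBS libraries s1, s2, s6, s11 and s16. Libraries s4 and s14 stood above every PBS library and s18 fell below s1, so the groups overlapped; the log2 fold change was 0.72 (SE 0.23, edgeR adjusted p = 0.132). Irf9, the DNA-binding subunit of the complex with STAT2, had a log2 fold change of 0.13 (SE 0.18) and Stat2 one of -0.14 (SE 0.16). Irf1 is an activator with targets in the type I and type II responses. It averaged 82.4 ± 5.51 CPM in LPS libraries (SD, n = 3) and 82.5 ± 9.30 CPM in PBS libraries (SD, n = 5). Its log2 fold change was -0.0027 with an approximate 95% interval of -0.26 to 0.26. None of the 4 passed.

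Of the nucleic acid sensors, Zbp1 and Dhx58 had the largest values. Zbp1, a sensor of Z-form nucleic acid that can start necroptosis, was at 10.1, 24.5 and 16.01 CPM in the LPS libraries and at 6.96, 11.3, 9.97, 6.75 and 6.47 CPM in the PBS libraries. Its highest values were in s14 and s18, while s4 lay inside the PBS range (log2 fold change 0.99, SE 0.30, edgeR adjusted p = 0.12). Dhx58, which encodes LGP2, the regulator of the RIG-I-like receptors, was at 12.5, 8.75 and 11.6 CPM in LPS libraries against 8.70, 7.74, 6.78, 3.38 and 3.64 CPM in PBS libraries. The groups did not overlap, but s14 and s1 nearly touched (log2 fold change 0.83, SE 0.31, edgeR adjusted p = 0.18). The 2 receptors that detect viral double-stranded RNA directly, Ddx58 (RIG-I) and Ifih1 (MDA5), had log2 fold changes of -0.29 (SE 0.26) and 0.14 (SE 0.35). Trim25, the ubiquitin ligase known for activating RIG-I, was at 50.9 to 59.8 CPM in LPS libraries and 48.2 to 59.4 CPM in PBS libraries, with a log2 fold change of 0.08 (SE 0.13). None of these 5 tested members was called.

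In the ISG15 system Usp18 rose, and Isg15, the tag that it removes, did not pass. Usp18 (chr6:121245906-121270917 on GRCm38) was at 79.8, 75.2 and 83.8 CPM in the LPS libraries, against 41.4, 46.8, 14.8, 29.9 and 34.8 CPM in the PBS libraries. All LPS libraries lay above all PBS libraries, and s6 was the lowest of the 8. The log2 fold change was 1.24 (SE 0.26, edgeR adjusted p = 0.0367). The call needed most libraries, and its edgeR adjusted p was 0.124 without s4, 0.119 without s14, 0.131 without s18, 0.106 without s11 and 0.0501 without s16, while the log2 fold change stayed between 1.05 and 1.39 over the 8 fits that each left out 1 library. Isg15, whose promoter is printed above, was at 26.7, 50.4 and 20.9 CPM in LPS libraries and at 33.0, 29.7, 26.3, 19.3 and 13.7 CPM in PBS libraries. Only s14 exceeded the PBS range, and the log2 fold change of 0.39 (SE 0.32, edgeR adjusted p = 0.563) was -0.05 without s14.

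**Figure D3:**
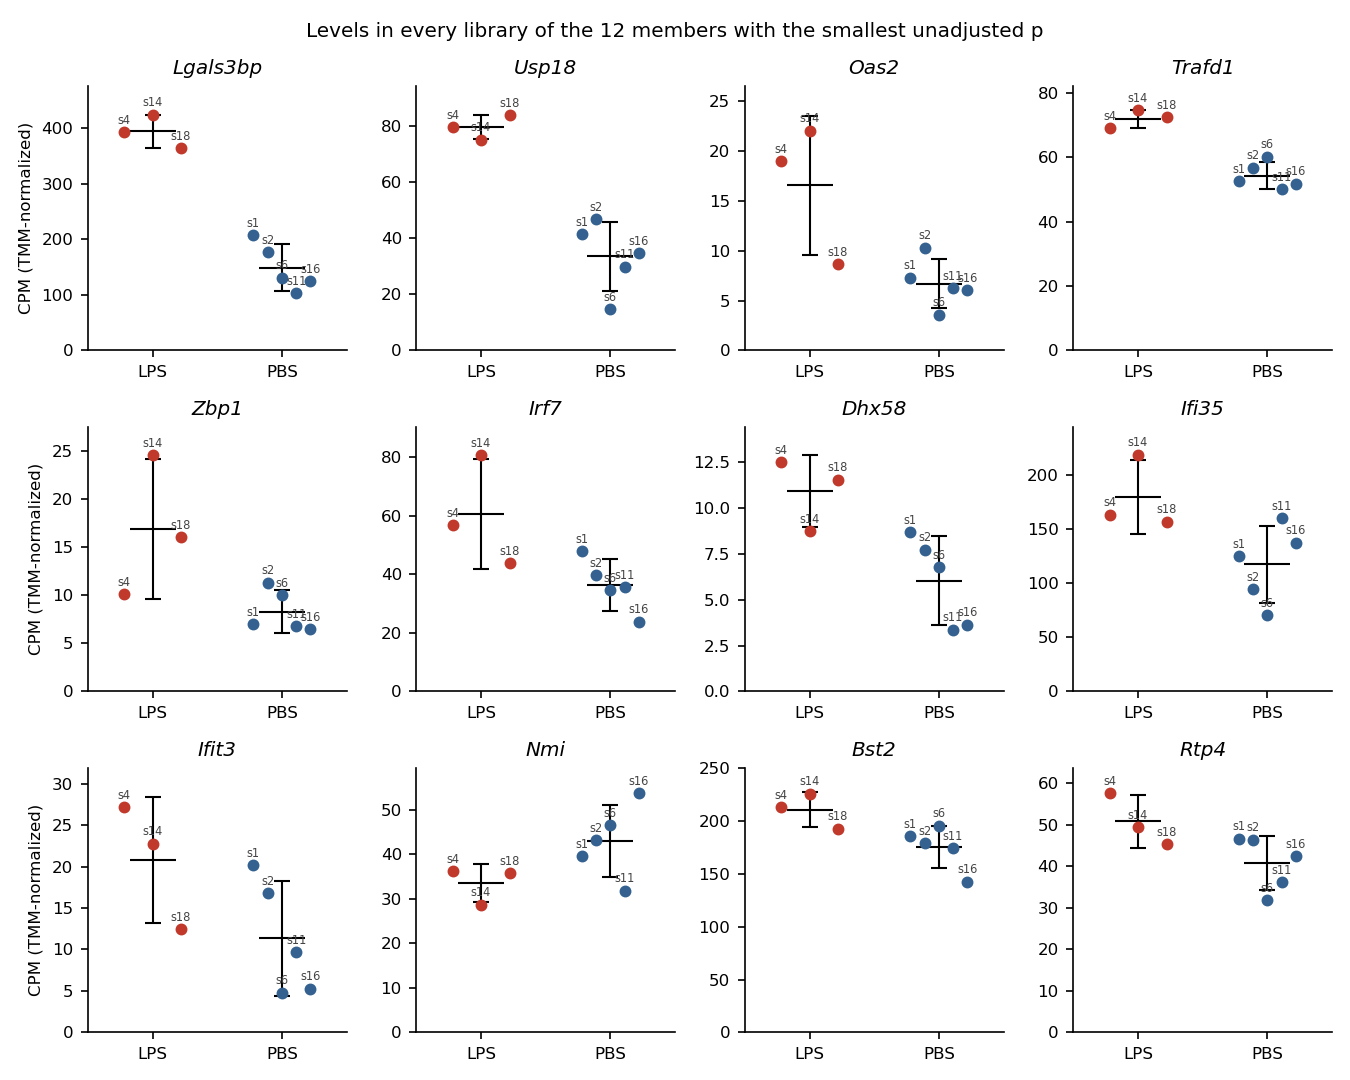
CPM of the 12 members with the smallest unadjusted p in every library, LPS (red, left) and PBS (blue, right); each dot is a library, the black line the mean and the bars 1 SD (n = 3 and n = 5). Lgals3bp, Usp18, Trafd1 and Dhx58 show no overlap between groups, and Nmi is the 1 gene of the 12 with the higher mean in PBS.

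The direct antiviral effectors had log2 fold changes from -0.26 to 1.55, the highest that of the scarce Rsad2. The oligoadenylate synthetases make the messenger that activates RNase L. Oas2 was at 19.0, 22.05 and 8.67 CPM in LPS libraries, against 7.31, 10.3, 3.59, 6.27 and 6.06 CPM in PBS libraries. Libraries s4 and s14 were above all PBS libraries, and s18 fell between s1 and s2 of the PBS group. Its log2 fold change of 1.26 (SE 0.35) did not pass by edgeR (adjusted p = 0.0931), and passed by DESeq2 (adjusted p = 0.0321). Oasl2, an Oas-like protein with ubiquitin-like domains, was at 32.9, 30.4 and 24.7 CPM in LPS libraries and at 36.2, 20.6, 12.4, 7.72 and 8.49 CPM in PBS libraries. Its highest value of all was in the PBS library s1, and the log2 fold change was 0.75 (SE 0.40, edgeR adjusted p = 0.352). Oas1a gave 1, 7 and 3 UMIs in the LPS libraries and 0, 1, 0, 1 and 1 UMIs in the PBS libraries, too few to test.

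The Ifit proteins bind viral RNA and hold back its translation; Ifit1, Ifit2 and Ifit3 are neighbours on chromosome 19. Ifit3 was at 27.1, 22.7 and 12.5 CPM in LPS libraries, against 20.2, 16.8, 4.78, 9.65 and 5.26 CPM in PBS libraries, with a log2 fold change of 0.84 (SE 0.42, edgeR adjusted p = 0.321). The PBS libraries s1 and s2 lay above the LPS library s18. The libraries s6, s11 and s16 were again the lowest for Ifit1, with 15.4, 9.45 and 5.56 CPM in LPS libraries and 6.96, 12.6, 3.19, 2.89 and 2.02 CPM in PBS libraries (log2 fold change 0.81, SE 0.51, edgeR adjusted p = 0.431). Ifit2 was at 1.56 to 4.08 CPM in LPS libraries and 0.809 to 3.13 CPM in PBS libraries, close to the floor of 3 counts. Reads of Ifit3 and of near-identical Ifit3b, and those of the Ifit1 and Oas1 paralogs, may be divided or lost because only uniquely mapped reads were kept, so these levels are uncertain.

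A pair of scarce effectors had large estimates and wide errors. Rsad2, which encodes viperin, had 8, 13 and 2 UMIs in the LPS libraries and 1, 2, 0, 2 and 4 UMIs in the PBS libraries; its log2 fold change was 1.55 (SE 0.80, edgeR adjusted p = 0.329). Mx1, the GTPase that blocks influenza virus (C57BL/6 mice carry a defective copy), was at 2.22 to 4.57 CPM in LPS libraries and 0.399 to 3.83 CPM in PBS libraries (log2 fold change 0.97, SE 0.54). The most abundant effectors moved little. Bst2, which encodes tetherin, a protein that holds budding virus on the cell surface, was at 214, 226 and 193 CPM in LPS libraries and 186, 179, 196, 174 and 143 CPM in PBS libraries. The LPS library s18 was below the PBS library s6, and the log2 fold change was 0.26 (SE 0.13, edgeR adjusted p = 0.323). Isg20, an exonuclease, was at 132, 165 and 144 CPM in LPS libraries and 142, 116, 129, 150 and 170 CPM in PBS libraries, with its highest value in the PBS library s16 and a log2 fold change of 0.06 (SE 0.15). Adar, the RNA-editing enzyme, had a log2 fold change of 0.07 (SE 0.19), Samhd1, which breaks down nucleotides, one of -0.10 (SE 0.14), and Eif2ak2, which encodes the kinase PKR, one of -0.26 (SE 0.22). Approximate 95% intervals of the log2 difference were taken for the most abundant 2 of these effectors. They were 0.0018 to 0.53 for Bst2 and -0.23 to 0.35 for Isg20. Such intervals are narrower than the F test of edgeR allows. By that test Bst2 had an unadjusted p of 0.0725, so its interval above 0 does not make it higher.

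PARP9 and DTX3L form an enzyme pair that modifies proteins with ADP-ribose and ubiquitin, and Parp14 lies beside their genes on chromosome 16. Parp9 and Parp14 had log2 fold changes of 0.06 (SE 0.18) and 0.13 (SE 0.18). Dtx3l was at 6.01, 2.45 and 4.45 CPM in LPS libraries and 5.22, 5.16, 7.18, 5.31 and 9.70 CPM in PBS libraries, and its log2 fold change of -0.55 was the most negative of the members (SE 0.34, edgeR adjusted p = 0.427). Parp9 and Dtx3l overlap at their first exons on opposite strands, away from the 3′ ends that were counted. The sources do not say whether strand was used in counting. Cxcl10, the chemokine that draws CXCR3-bearing T cells, was the only chemokine tested. It was at 5.77, 1.40 and 0.890 CPM in LPS libraries and 3.13, 1.93, 1.99, 0.965 and 1.62 CPM in PBS libraries. Its highest value was in s4, and the log2 fold change of 0.47 (SE 0.59) was -0.81 without that library.

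Lgals3bp stood out among the remaining members. It lies at chr11:118392747-118401959 (GRCm38), had the highest mean CPM of the 34, and was at 393, 424 and 365 CPM in the LPS libraries against 207, 177, 131, 103 and 124 CPM in the PBS libraries. The lowest LPS library exceeded the highest PBS library, s1,. Its log2 fold change was 1.40 (SE 0.20, edgeR adjusted p = 0.00683), and the call held in each of the 8 fits without 1 library, where the log2 fold change was 1.30 to 1.55 and the adjusted p 0.00337 to 0.0365. Trafd1, a feedback inhibitor of innate signalling, was at 69.0, 74.5 and 72.5 CPM in LPS libraries, against 52.5, 56.8, 60.2, 50.2 and 51.8 CPM in PBS libraries. Both groups were tight and did not overlap, and the log2 fold change of 0.41 (SE 0.12) had an edgeR adjusted p of 0.111. Ifi35 was at 163, 219 and 157 CPM in LPS libraries and 125, 94.5, 70.2, 160 and 137 CPM in PBS libraries, with s18 below s11 and a log2 fold change of 0.61 (SE 0.23, edgeR adjusted p = 0.188).

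Nmi, whose protein binds that of Ifi35, had a negative value. It was at 36.3, 28.7 and 35.8 CPM in LPS libraries and 39.7, 43.2, 46.6, 31.8 and 53.8 CPM in PBS libraries, and only s11 of the PBS group fell inside the LPS range (log2 fold change -0.35, SE 0.18, edgeR adjusted p = 0.321). Rtp4, a receptor transporter protein, was at 57.7, 49.3 and 45.4 CPM in LPS libraries and 46.6, 46.4, 31.9, 36.2 and 42.5 CPM in PBS libraries (log2 fold change 0.31, SE 0.16, edgeR adjusted p = 0.328). Ifi44 was scarce, with 3.34 to 6.30 CPM in LPS libraries and 0.404 to 5.16 CPM in PBS libraries, and a log2 fold change of 1.00 (SE 0.55). Ifi27l2a had a log2 fold change of 0.04 (SE 0.14), with 59.3 to 69.6 CPM in LPS libraries and 52.1 to 70.3 CPM in PBS libraries.

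For members of 10 CPM or more, the spread between PBS libraries was near that of all genes of that abundance. The mean log2 CPM over the 34 members was 4.87, 4.79 and 4.48 in the LPS libraries s4, s14 and s18, and 4.53, 4.51, 4.12, 4.17 and 4.19 in the PBS libraries s1, s2, s6, s11 and s16. The PBS libraries s1 and s2 thus lay slightly above the LPS library s18. The mean log2 CPM over all tested genes was 4.41, 4.37 and 4.37 in the LPS libraries and 4.39, 4.39, 4.25, 4.33 and 4.33 in the PBS libraries in the same order, so that s1 and s2 were also the highest PBS libraries over the whole table. Of the 34 members, s6 had the lowest value of all libraries in 8, s11 in 7 and s16 in 10. Library s14 had the highest in 13 and s4 in 9. The same counts were not made over all tested genes, so these cannot be read as a result about the members. The largest PBS ranges among members of 10 CPM or more were those of Oasl2 (highest 4.69 times the lowest), Ifit3 (4.22 times) and Usp18 (3.17 times). Over the 25 members of that abundance the median ratio was 1.57, beside 1.56 over 8435 genes. In the heat map the rows of Ifit1, Ifit2, Ifit3, Oasl2 and Ifi44 are red in s1 and s2 and blue in s6, s11 and s16, and those of Adar, Isg20 and Eif2ak2 are not.

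**Figure D4:**
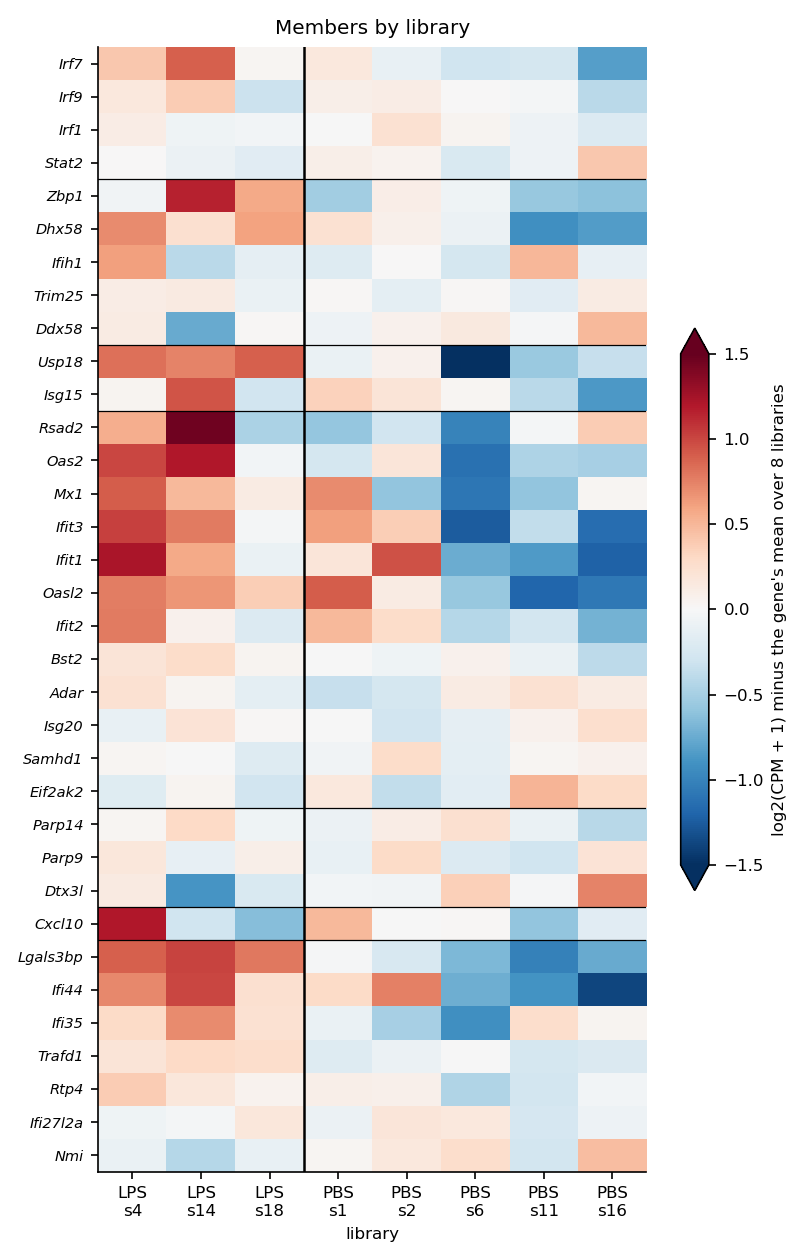
Members (rows, grouped by role) in the 3 LPS and 5 PBS libraries (columns); colour is log2(CPM + 1) minus the gene's mean over the 8 libraries. Red, above the mean, is strongest in s4 and s14 for Irf7, Oas2 and Ifit3, and covers all 3 LPS libraries for Usp18 and Lgals3bp. Blue, below it, gathers for these genes in s6, s11 and s16.

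The count of called members was 2, and it was 1 without s4, without s14, without s18, without s11 and without s16, where Lgals3bp was called alone. The samples' labels give no batch, and the library numbers appear in no sample label. The ciliated cell markers also ranged widely in the PBS group, at 6080, 4725, 2476, 4946 and 5787 CPM in s1, s2, s6, s11 and s16, and the macrophage markers were at 1528, 2076, 2237, 2011 and 2191 CPM in the same order. The alveolar type II cell markers were at 145608 and 146218 CPM in s1 and s2 and at 203299, 210321 and 215142 CPM in s6, s11 and s16. The macrophage marker sum of s1 was the lowest of the group, and that of s2 lay among those of s6, s11 and s16. The members' mean log2 CPM was 4.53 in s1 and 4.51 in s2, the highest of the group. The part of these cell types in the members' spread was not tested.

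**Figure D5:**
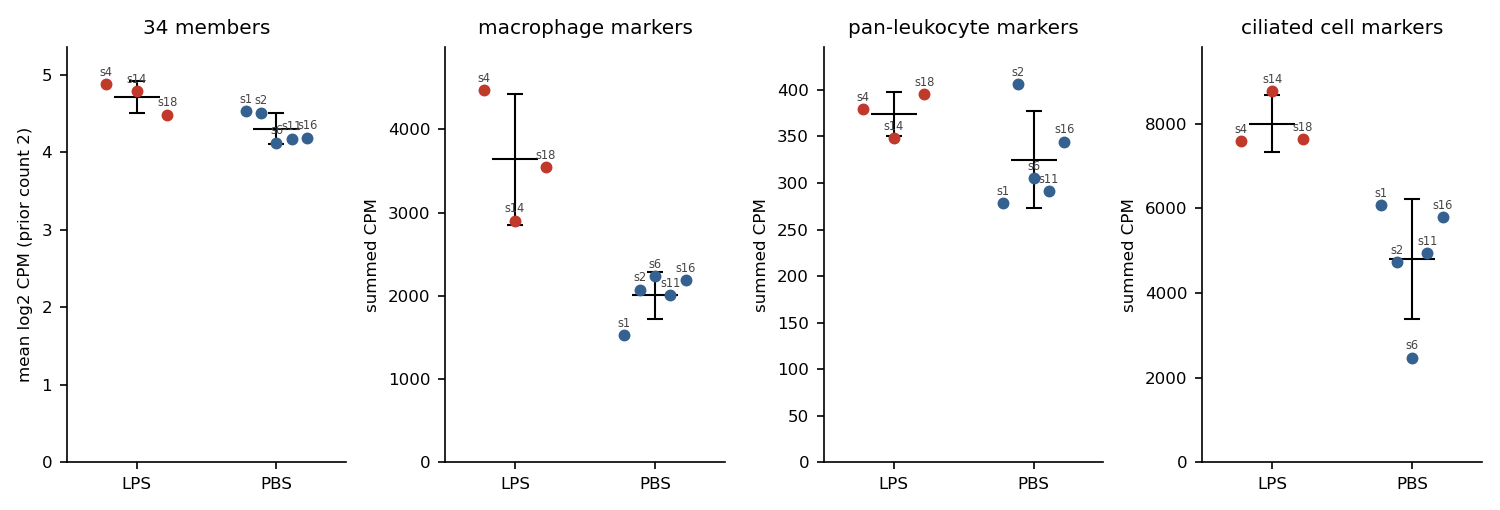
Mean log2 CPM of the 34 members (left panel) and summed CPM of macrophage, pan-leukocyte and ciliated cell markers, by library, LPS (red) left of PBS (blue); lines and bars are mean and SD. Macrophage and ciliated markers do not overlap between groups, whereas the members' mean and the pan-leukocyte markers do.

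Among other genes of interferon production, signalling and response, Ifitm1 and Ifit1bl1 rose by edgeR. Of 77 tested genes on a list that holds no members, 2 were called higher and 0 lower, which is 2.597% against the 1.46% of all tested genes. Ifitm1, which encodes a membrane protein that hinders viral entry, was at 235, 248 and 181 CPM in LPS libraries, against 93.9, 64.8, 29.9, 39.1 and 128 CPM in PBS libraries. No library overlapped, and the log2 fold change was 1.63 (SE 0.36, edgeR adjusted p = 0.043). Ifit1bl1, a paralog of Ifit1, was at 3.36, 5.25 and 1.56 CPM in LPS libraries and 0.696, 0.323, 0.399, 0.482 and 0 CPM in PBS libraries, where every PBS value was under 3 counts (log2 fold change 2.96, SE 0.62, edgeR adjusted p = 0.0367). Both calls rested on most libraries: Ifitm1 lost its call without s4, s14, s18, s2 or s11 (adjusted p 0.0125 to 0.183 over the 8 fits), and Ifit1bl1 without s2, s6, s11 or s16 (adjusted p 0.0385 to 0.0964 over the 6 fits in which it could be tested). By limma-voom Ifit1bl1 did not pass (adjusted p = 0.0521), DESeq2 gave it no adjusted p, and DESeq2 called Slfn2 beside Ifitm1 (adjusted p = 0.0355 for Slfn2).

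No receptor or signalling gene was called. Of the 6 receptor genes tested, Ifngr2, a subunit of the type II interferon receptor, had a log2 fold change of 0.53 (SE 0.16, edgeR adjusted p = 0.111), and Il10rb, shared by the type III interferon and interleukin-10 receptors, one of 0.29 (SE 0.13). None of the kinase genes Jak1, Jak2 and Tyk2 reached an unadjusted p under 0.05. Upstream of interferon, Ikbke, a kinase that activates IRF3 and IRF7, was at 22.8, 21.7 and 24.9 CPM in LPS libraries and 17.0, 12.9, 5.98, 10.1 and 16.2 CPM in PBS libraries, with no overlap (log2 fold change 0.89, SE 0.27, edgeR adjusted p = 0.119). The interferon genes themselves were not analysed here.

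With the called pair included, 16 of the 77 (20.8%) were higher at an unadjusted p under 0.05, against 10.4% of all tested genes, and 3 (3.90%) were lower, against 7.64%. In 12 of the 77 (15.6%), the called pair among them, every LPS library exceeded every PBS library, against 8.52% of all tested genes. The higher ones that were not called included the synthetases Oas3 (log2 fold change 1.36, SE 0.42) and Oasl1 (1.21, SE 0.37), Slfn2 (0.98, SE 0.27), Ms4a6d (1.38, SE 0.35) and Irf5 (0.78, SE 0.30). They also held 3 genes of antigen presentation, Psmb9 (0.55, SE 0.18), Tap1 (0.60, SE 0.22) and Nlrc5 (0.80, SE 0.26), and Epsti1 (0.60), Shisa5 (0.29) and Ptpn6 (0.33). The lower ones were Slfn5 (log2 fold change -1.97, SE 0.67), Lgals9, which encodes galectin-9 (-0.51, SE 0.17), and Trim56 (-0.43, SE 0.16). None of these passed after adjustment by edgeR, with the smallest adjusted p 0.0728 for Ms4a6d.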

How the data were processed

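The authors ran bulk MARS-seq reads through their pipeline (User-friendly Transcriptome Analysis Pipeline), kept those mapped uniquely to 3′ ends of RefSeq genes (mm10, NCBI annotation release 109) and deposited raw UMI counts per gene and library, which were used for every test. No source used here names the aligner. The deposited table also holds 16 other columns of values per library, which were not used, and the authors' DESeq2 mean signal, log2 fold changes and p-values, which were neither used nor compared. Column names give wt, the group and a library number. That number is in none of the sample labels, so replicate numbers were not assigned.

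Genes with 30 or more UMIs over the 8 libraries entered edgeR 4.0.16 (TMM, glmQLFit, glmQLFTest, LPS over PBS) in R 4.3.3, with Benjamini-Hochberg adjustment over all 12661 genes and the study's thresholds (adjusted p under 0.05, and a minimum fold change). Standard errors are the absolute log2 fold change over the root of the F statistic. Intervals apply a normal quantile to these errors, so they are approximate and narrower than the F test allows. They are for 1 gene at a time. For sums over markers and for library totals, a two-sided exact permutation test over libraries was used. The script was tested on simulated data. Alternatives were DESeq2 1.42.0, limma-voom (limma 3.58.1), DESeq2 size factors, no filter, a minimum of 100 UMIs, no fold threshold, each library left out, and 2 sets of PBS libraries left out. The members, the other lists and these tests were chosen with earlier results of these data known. Values per library are given for called members, the 12 with the smallest unadjusted p, the 4 with the highest mean CPM, the 3 with the widest PBS range among those of 10 CPM or more, and some others chosen after their values were seen (Isg15, Ifit1, Dtx3l, Cxcl10, Rsad2 and Ikbke). Every pair of libraries of a group differed beyond counting noise, so none was counted as a copy of another. The chi-square per degree of freedom was 2.83 for the PBS pair s1 and s2 and 7.25 to 21.6 for the other pairs, which does not show whether any pair shares an animal. Gene positions, names and promoters come from RefSeq tables of GRCm38. P-values measure the spread between these libraries. The floor of 3 counts covers counting error only.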

Additional observations from a re-analysis of the deposited data

How the results depend on the processing

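No paired analysis was possible because the columns of the table carry library numbers that are in no sample label. Over 53 genes (the 34 members and 19 pathway genes) and 827 values under alternatives, 774 kept direction and side of the threshold, 16 lost a call, 13 gained one and 24 changed sign. By DESeq2, 369 genes were called higher and 191 lower over the table, against 185 and 72 by edgeR. Pathway genes called higher numbered 1 by limma-voom, 1 with at least 100 UMIs and 1 without the PBS libraries s6, s11 and s16. The members' median log2 fold change was 0.14 with at least 100 UMIs (29 members) and 0.14 without s6, s11 and s16, where 47 genes were called lower and 7 members had every LPS library above every PBS library. Without s1 and s2, 7 of 33 tested members were called higher, and of 12222 tested genes 527 were called higher and 381 lower. In that fit 9 pathway genes were called higher and 1 lower, and 14 members did not overlap. The libraries s1 and s2 had the highest mean of the members in the PBS group. Leaving them out lowers the members' mean in that group by construction and favours member calls. The counts of that fit therefore cannot be read as a result about the members. The members' median log2 fold change was then 0.41, against 0.35 with all libraries, while those of Adar and Isg20 became negative. With each library left out in turn, 1 to 2 members and 0 to 2 pathway genes were called higher, 47 to 259 genes were called higher and 12 to 95 lower, and 4 to 12 members did not overlap. The share of all tested genes without overlap was not counted for these smaller sets. Fewer libraries make non-overlap easier to reach, so these counts cannot be read as a result about the members.

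None of the results that changed sign was called. Irf1 was at a log2 fold change of 0.00071 by limma-voom and 0.080 without s1 and s2. Without s6, s11 and s16, Ifit2 was at -0.12, Parp9 at -0.037 and Ifi27l2a at -0.0086. Without s1 and s2, Adar was at -0.11 and Isg20 at -0.029. Over the fits without 1 library the ranges were -0.059 to 0.061 for Irf1, -0.31 to 0.34 for Ifih1, -0.076 to 0.73 for Ifit2, -0.038 to 0.15 for Adar, -0.0092 to 0.14 for Parp9, -0.81 to 0.91 for Cxcl10, -0.030 to 0.30 for Irf9, -0.049 to 0.63 for Isg15, -0.034 to 0.13 for Isg20 and -0.048 to 0.088 for Ifi27l2a. The cause of these changes was not tested. Depth limits the members under 10 CPM, where a few UMIs set the value.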
